A study of Homo sapiens with 15 samples.

Results

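The cytosolic ribosome is built from ribosomal RNA and about one protein per gene of the RPS (small subunit) and RPL (large subunit) families. Whole-genome bisulfite sequencing, which reads the methylated fraction of the cytosines at each CpG (mC), was examined over these genes in HCT116 cells, an established human colorectal carcinoma line. Members were the autosomal protein-coding GENCODE genes (hg38) named RPL or RPS followed by digits and at most an A or one further digit, so that the RPS6K kinases and the paralogues ending in L were left out. This gave 69 genes, 29 of the small and 40 of the large subunit, of 19111 autosomal protein-coding genes. They lay on 20 chromosomes, with 12 on chromosome 19, and 24 of the genes hosted 55 small nucleolar RNA genes. For each gene, mC was the summed methylated reads over the summed reads of all CpGs in the 500 bp either side of the gene start (start window), 500 to 2000 bp upstream (upstream flank) and from 500 bp into the gene to its end (gene body).

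The 15 libraries came from HCT116 cells carrying a doxycycline-inducible shRNA, integrated with a lentiviral vector, against the 3′UTR of UHRF1 or DNMT1. UHRF1 was targeted in 3 clones, Cl.3, Cl.6 and Cl.9, and DNMT1 in 2 bulk populations, R1 and R2. Every population gave a Baseline library (day 14, no doxycycline), a Knockdown library (day 14, after 14 days of 10 ng/mL doxycycline) and a Recovery library (day 28, after 14 days with and then 14 days without doxycycline). All cells carried an shRNA, and no library came from cells with a control shRNA. The shRNA, the use of clones or bulk cells and the table the values came from changed together, so their effects cannot be told apart, and Recovery had no untreated library of its own day. Protein depletion and expression were not analysed here.

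DNMT1 copies methylation onto the new strand after replication, and UHRF1 binds hemimethylated CpGs and brings DNMT1 to them, so depleting either one lets methylation fade over cell divisions. Ribosomal protein genes are transcribed in nearly every dividing cell from CpG-rich promoters that usually have no methylation. Most of their transcripts begin at a C within a run of pyrimidines, the 5′ terminal oligopyrimidine (TOP) tract, through which their translation follows growth signals. Methylation of such genes therefore sits in the flanks and the bodies, while the start is a floor against which small changes are read.

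Libraries held 317670080 to 593644411 reads at CpGs, with a median of 11 to 21 reads per autosomal CpG. The 95% Wilson interval of a region's mC reached, at the median, 0.457 points to either side in the start window, 3.11 points upstream and 1.94 points in the body, which covers counting error only. The Baseline library of Cl.6 stood apart. Its mC in mitochondrial DNA, where methylation is near absent and the value mostly counts unconverted cytosines, was 2.50% against 0.257 to 0.500% in the other 14 libraries. Its values at the gene starts were raised as well, and the part of incomplete conversion in them was not tested. Counts of calls in the start window that moved with Cl.6 are given below with and without it.

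The starts are shown first, because the letters around them are what most of these genes share. Each line gives the 20 bases before the start of the canonical transcript and the first 10 bases from it, on the strand of the gene, with the pyrimidine run that begins at the start in capitals. The coordinates (hg38) are chr6:132814549-132814578 for RPS12, chr6:33272055-33272084 for RPS18, chr17:8383184-8383213 (minus strand) for RPL26, chr19:41860235-41860264 for RPS19, chr11:17077658-17077687 (minus strand) for RPS13, chr1:6199586-6199615 (minus strand) for RPL22, chr19:5690275-5690304 for RPL36, chr19:1438376-1438405 for RPS15 and chr3:23917112-23917141 for RPL15. The first 7 are genes the results below turn on, and RPS15 and RPL15 show starts with a run of a single base and with none.
RPS12: ggcatgcgtgcggatgaggcCTCTTTCCCT
RPS18: gatatcgcgtcacttccgctCTCTCTTCCa
RPL26: accggaagcagcgtgtagttCTCTTCCCTT
RPS19: gcccgggaaaccccgtcgttCCCTTTCCCC
RPS13: ggcgtttccactctcgctctCCTTTCgttg
RPL22: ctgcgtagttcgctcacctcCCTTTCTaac
RPL36: gagttccgcgcggcgccagcCCTTCCgcca
RPS15: ataactgcgcaggcgcggacCaaagcgatc
RPL15: aggagcccaaaaggcattgtgggagtacag

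At 55 of the 69 members (79.7%) the canonical transcript began with a C, against 10.6% of the 19111 genes. At 51 (73.9%) that C opened a run of at least 5 pyrimidines, against 4.55% of all genes. In the window from 250 bases before to 50 bases from the canonical start, searched on both strands, the ETS family core CCGGAAG occurred in 24 members (34.8%, all genes 14.2%) and the YY1 core AAGATGGC in 10 (14.5%, all genes 4.05%). The NRF1 core GCATGCGC occurred in 6 members (8.70%, all genes 4.20%) and the TATA box letters TATAAA in 5 (7.25%, all genes 9.74%). The ETS core holds a CpG, whose methylation can be read directly. The 30 such CpGs in the members had a summed mC of 0 to 1.79% per library, and the other 1615 CpGs of the same windows 0.233 to 2.77%. Both upper ends are the Cl.6 Baseline library, and without it the highest values were 0.741 and 0.524%. These matches describe letters in a window and were not tested as binding sites.

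The start windows of ribosomal protein genes were almost free of methylation before knockdown, and little was left to lose. The median over 68 members at Baseline was 0.553, 3.27 and 0.517% for Cl.3, Cl.6 and Cl.9, with 0.416 and 0.388% for R1 and R2, whereas the median over all genes was 13.1, 15.5, 11.2, 11.5 and 11.0%. In each Baseline library 70.6 to 80.9% of the members lay under 5%, against 32.1 to 40.5% of all genes. Most related gene lists used below also started low. Over the populations the median Baseline was 0.948% in the members and 0.831% in 7 cytosolic ribosome genes outside the rule. It was 1.02% in ribosome biogenesis genes, 1.28% in translation factors and 1.45% in mitochondrial ribosomal protein genes. RNA polymerase I genes had 4.32%, the paralogues left out 5.62% and all genes 12.6%. At Knockdown the member medians were 0.638, 0.647 and 0.401% in the clones, with 0.357 and 0.311% in the bulk populations. The median thus did not fall in Cl.3, and its large drop in Cl.6 started from the Baseline library with the raised mitochondrial value.

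With all reads of the 69 start windows summed, mC at Baseline, Knockdown and Recovery was 3.63, 2.50 and 2.93% in Cl.3, 5.90, 2.57 and 2.94% in Cl.6 and 2.78, 2.01 and 2.09% in Cl.9. It was 2.89, 1.38 and 2.91% in R1 and 2.98, 1.22 and 2.98% in R2. Knockdown was below Baseline in all 5 populations. The mean change was -1.74 ± 1.39 points (SD, n = 3) under shUHRF1 and -1.63 ± 0.175 points (SD, n = 2) under shDNMT1, while all genes changed by -4.97 ± 2.05 and -6.86 ± 0.297 points. The shDNMT1 change of the members was -0.80 points around the canonical start and -3.22 points as a mean over members. Without Cl.6 the shUHRF1 mean was -0.947 points, against -3.82 over all genes. Most of the change sat at the rims of the window. The inner 250 bp either side changed by -0.993 ± 1.32 and -0.386 ± 0.0688 points, and the outer 250 to 500 bp by -2.69 ± 1.57 and -3.29 ± 0.394 points. In the inner part Cl.3, Cl.6 and Cl.9 changed by -0.111, -2.51 and -0.353 points, so that the mean without Cl.6 was -0.232 points. After the mitochondrial value of each library was taken as a floor and removed, an alternative chosen after the data were seen, the Cl.6 start windows went from 3.50% to 2.08%, close to the course of Cl.3 (3.22% to 2.05%). The same correction gave 2.41% to 1.69% in Cl.9, 2.60% to 1.13% in R1 and 2.70% to 0.964% in R2.

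Gene by gene, edgeR's quasi-likelihood test with Benjamini-Hochberg adjustment over all genes called 30 of 68 members lower at shUHRF1 Knockdown, where 73.4% of all genes tested were called lower. At shDNMT1 Knockdown it called 23 of 68, where the share of all genes was 65.4%. Both counts fall below the background, and no member was called higher. The calls were often very small changes. Of the 30 shUHRF1 calls 21 had a Baseline under 5%, as had 7 of the 23 shDNMT1 calls, and 8 and 10 of the 68 members fell by over 5 points, against 51.4 and 53.4% of all genes tested. The count depended on single libraries. Without Cl.6 the shUHRF1 count was 13 (all genes 56.4%), without R1 the shDNMT1 count was 11 (49.6%), and without R2 it was 7 (46.3%). Without the population as a block the counts were 15 (52.4%) and 12 (53.7%).

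The annotated start of a gene is its outermost 5′ end, which is not always where its main transcript begins. The canonical transcript began at the gene start in 20 members, within 100 bp of it in 50 and over 500 bp away in 12. The canonical start of these 12 was not always low in mC. At RPL6, where it is 9233 bp away, Baseline mC there was 13.8, 14.8 and 14.5% in the clones. It was 16.1 and 14.6% in R1 and R2. In 15 members another protein-coding gene started within 500 bp of the gene start. Among them were RPL6 (PTPN11) and RPS29 (LRR1), whose start windows thus also cover the start of that neighbour. Around the canonical start 20 of 69 members were called lower at shUHRF1 Knockdown (all genes 67.9%) and 10 of 69 at shDNMT1 Knockdown (57.1%). In the narrower window of 250 bp either side of the gene start the counts were 12 of 68 (45.7%) and 4 of 68 (39.2%).

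The 3 members with a fully methylated start window all had their canonical start over 500 bp away. RPL22 (chr1:6185020-6209389, minus strand), an RNA-binding protein of the large subunit, has its outermost 5′ end 9794 bp upstream of its canonical start. RPL36 (chr19:5674947-5691875), another large subunit protein, has it 15348 bp upstream. RPL4 (chr15:66498015-66524532, minus strand), a core protein of the large subunit near the exit tunnel, has it 19677 bp upstream, with only 3 CpGs in the window, and it was the only member to fail the filter of 5 CpGs and, in each library, 50 reads.

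At the RPL22 5′ end mC at Baseline, Knockdown and Recovery was 98.4, 94.7 and 92.3% in Cl.3, 100, 90.0 and 92.3% in Cl.6 and 96.8, 73.0 and 85.6% in Cl.9. It was 99.1, 34.7 and 96.6% in R1 and 96.0, 28.1 and 95.7% in R2. Baseline and Knockdown did not overlap under either shRNA, and the bulk populations lost far more than the clones. The fall was 12.5 ± 10.3 points under shUHRF1 (log2 odds ratio -3.33, edgeR adjusted p = 4.07e-06) and 66.2 ± 2.40 points under shDNMT1 (log2 odds ratio -6.45, edgeR adjusted p = 1.84e-10). The window has 80 CpGs but as few as 123 reads in a library. At the canonical start of RPL22 the Baseline mC was 0.548, 2.39 and 0.401% in the clones, with 0.172 and 0.334% in the bulk populations, and neither change was called there (log2 odds ratios of -1.23 and -0.62).

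At the RPL36 5′ end mC was 97.1, 84.7 and 89.4% in Cl.3, 98.6, 83.9 and 92.3% in Cl.6 and 96.0, 59.5 and 70.6% in Cl.9. It was 96.7, 46.8 and 97.0% in R1 and 97.8, 42.1 and 95.1% in R2. Groups again did not overlap, and the clones had not returned to their Baseline by Recovery. The fall was 21.2 ± 13.3 points under shUHRF1 (edgeR adjusted p = 2.35e-08) and 52.8 ± 4.15 points under shDNMT1 (edgeR adjusted p = 1.92e-10). At the canonical start of RPL36 the Baseline was 0.338, 2.21 and 0.665% in the clones, with 0.234 and 0.172% in the bulk populations, and the shDNMT1 change was not called there (log2 odds ratio 0.014). The shUHRF1 call was kept there, with 0.171, 0.593 and 0.169% in the clones at Knockdown, where the largest step was from the Cl.6 Baseline. The 3 CpGs at the RPL4 5′ end read 94.2, 88.3 and 79.7% in Cl.3, 98.2, 58.5 and 90.0% in Cl.6, 95.5, 44.8 and 69.7% in Cl.9, 100, 45.5 and 94.5% in R1 and 96.4, 43.5 and 100% in R2. They came from at least 52 reads a library and were not tested.

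Among the members that passed the filter, 16 had a mean Baseline of 5% or more in the start window, RPL22 and RPL36 included. The others of these that are named here had intermediate levels. RPL3 (chr22:39312882-39320389, minus strand), one of the largest ribosomal proteins and placed at the peptidyl transferase centre, has its 5′ end 766 bp from its canonical start. Its mC was 20.3, 12.3 and 18.4% in Cl.3, 24.8, 9.23 and 11.1% in Cl.6, 15.3, 7.30 and 5.44% in Cl.9, 16.03, 4.12 and 11.5% in R1 and 17.6, 3.77 and 19.1% in R2. The fall passed the test under both shRNAs, by 10.5 ± 4.37 points (edgeR adjusted p = 0.00363) and 12.9 ± 1.34 points (edgeR adjusted p = 7.68e-05). Around the canonical start of RPL3, where Cl.3 had 0.436% at Baseline, neither change was called (log2 odds ratios of -1.53 under shUHRF1 and 0.22 under shDNMT1). RPL30 (chr8:98024851-98046469, minus strand), whose 5′ end is 924 bp from its canonical start, read 16.6, 3.78 and 6.15% in Cl.3, 20.4, 6.13 and 8.65% in Cl.6, 9.69, 1.38 and 1.78% in Cl.9, 8.65, 3.88 and 6.44% in R1 and 8.67, 2.04 and 4.18% in R2. It fell by 11.8 ± 3.12 points (edgeR adjusted p = 6.18e-06) and 5.70 ± 1.32 points (edgeR adjusted p = 0.00247), and the second call was lost without R2, within 250 bp and without the block (log2 odds ratios of -1.23, -1.42 and -1.70). Around the canonical start of RPL30 the Baseline was 0.530, 2.02 and 0.322% in the clones, with 0.29 and 0.27% in R1 and R2. Neither change was called there (-0.55 and -0.11).

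At RPL31 and RPS7 the canonical start is at or within 60 bp of the gene start, so these windows are centred on the main start. RPL31 (chr2:101002229-101024032), a protein at the rim of the exit tunnel, read 23.6, 9.96 and 13.05% in Cl.3, 20.5, 16.1 and 17.3% in Cl.6, 13.6, 11.4 and 14.4% in Cl.9, 11.6, 6.18 and 18.97% in R1 and 19.2, 4.39 and 14.9% in R2. It fell under shDNMT1 (10.1 ± 6.69 points, edgeR adjusted p = 0.00247), a call lost without R2 (log2 odds ratio -0.99), and the shUHRF1 change of -6.75 ± 6.08 points did not pass (edgeR adjusted p = 0.0792). Within 250 bp of the RPL31 start this turned around, with the shUHRF1 change called (log2 odds ratio -2.86) and the shDNMT1 change not (-1.58). RPS7 (chr2:3575260-3580920), a small subunit protein known to bind MDM2 outside the ribosome, read 9.32, 9.52 and 12.4% in Cl.3, 15.2, 7.59 and 12.1% in Cl.6, 9.75, 10.7 and 9.31% in Cl.9, 17.7, 5.50 and 15.9% in R1 and 13.002, 3.09 and 12.2% in R2. The clones overlapped (-2.17 ± 4.76 points, edgeR adjusted p = 0.431), whereas R1 and R2 both fell, by 11.1 ± 1.62 points on average (edgeR adjusted p = 0.000307). Within 250 bp of the RPS7 start that call was lost (log2 odds ratio -0.30). At the other end, the start window of RPL37 changed by -0.271 points under shUHRF1, RPL35A by -0.346, and RPL26 by 0.225 points under shDNMT1. RPL26 was called lower under shUHRF1 (edgeR adjusted p = 0.0208), a call lost without Cl.6, without Cl.9, by limma, within 250 bp and without the block (log2 odds ratios of -1.20, -1.79, -1.33, -1.08 and -1.63).

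**Figure D1:**
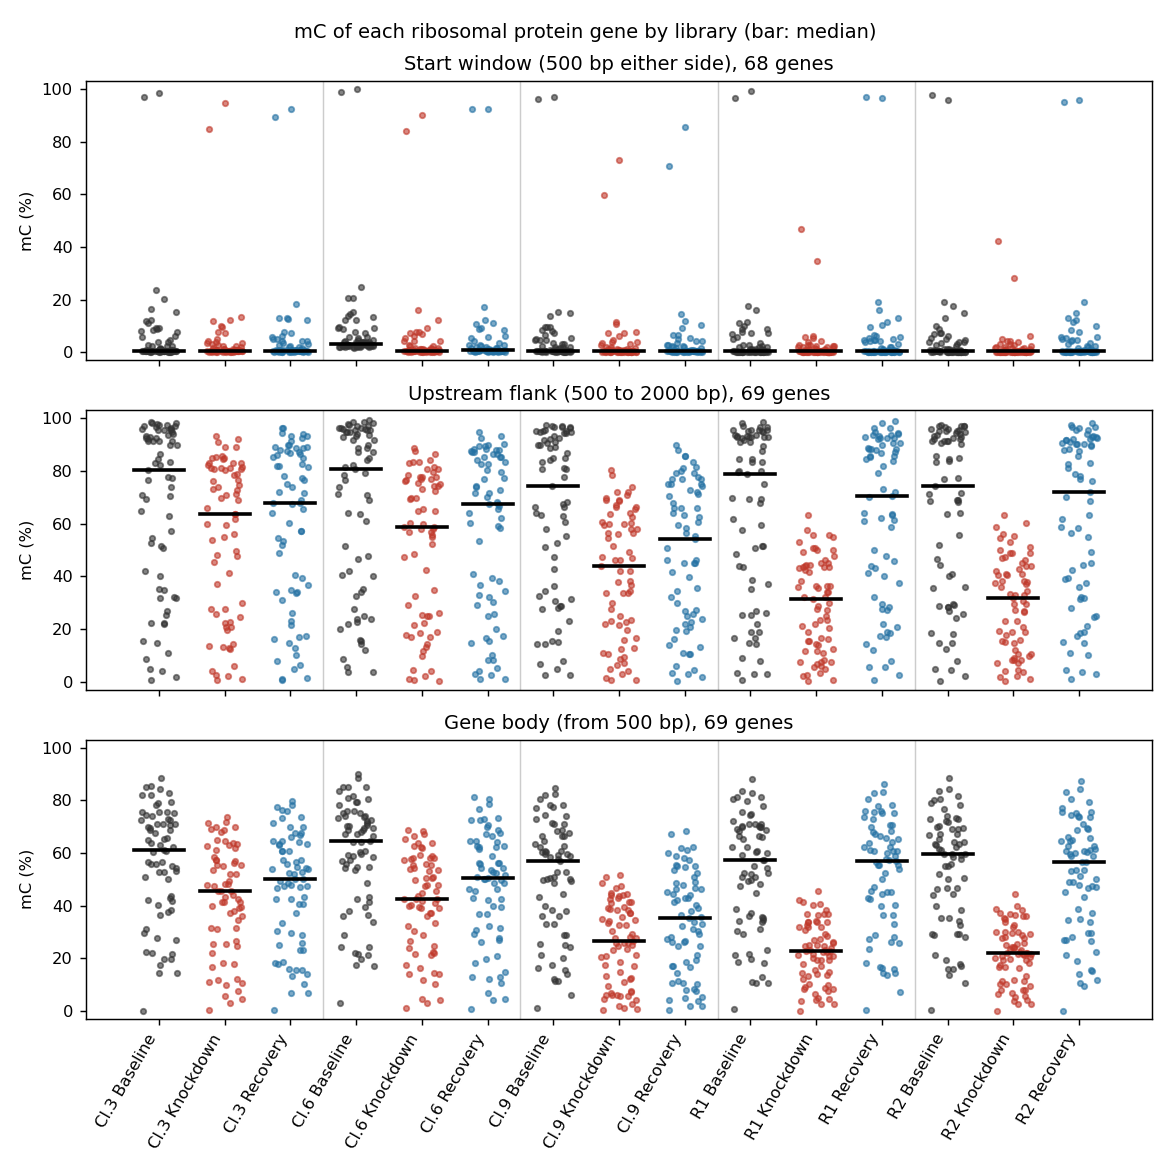
mC in percent of each ribosomal protein gene (points) in each of the 15 libraries, with the median as a bar, for the start window (68 genes), the upstream flank (69) and the gene body (69). The 2 points above the rest in the start window are RPL22 and RPL36, and the start medians of all libraries but the Cl.6 Baseline (3.27%) lie between 0.311 and 0.697%.

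The clearest shape in these genes lay downstream of the start. Genes were aligned on their canonical start, and the members were set beside the 11225 other genes whose canonical start lay in an unmethylated region (UMR) in every Baseline library. The ranges used here were chosen after the profile had been seen, so the values are a description with no test. From 500 bp upstream to 750 bp downstream the members held 1.66, 3.73 and 1.36% in the clones, with 1.27 and 1.33% in the bulk populations at Baseline, against 5.04, 7.55, 4.25, 4.15 and 4.12% in the other genes. The unmethylated stretch also reached further into the members. Between 750 and 1500 bp downstream Baseline mC was 22.4, 26.2 and 15.4% in the clones, with 18.99 and 19.2% in the bulk populations, against 44.3, 47.2, 39.3, 40.5 and 40.4%.

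Beyond that edge, between 1500 and 2500 bp, members and other genes differed less at Baseline, by the most in Cl.9, with 81.2, 82.8, 70.2, 76.6 and 76.2% (in the order Cl.3, Cl.6, Cl.9, R1, R2) against 82.8, 83.9, 79.4, 80.5 and 80.2%. At Knockdown the members lost a larger part of it. They lost 32.2, 34.8 and 61.8% of their Baseline mC in the clones, with 67.1 and 68.7% in the bulk populations, where the other genes lost 18.4, 25.1, 40.9, 52.7 and 54.2%. By Recovery the members had regained 23.4, 27.3 and 19.5% of the loss in the clones, against 44.8, 45.5 and 40.4% in the other genes. In R1 and R2 they had regained 91.7 and 93.9%, against 96.9 and 96.5%.

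As a share of Baseline, the gap in the clones was wider closer to the start and narrower further away. In R1 and R2 it had no such order. Between 750 and 1500 bp the members lost 62.4, 62.5, 83.3, 72.9 and 73.2%, against 32.5, 39.3, 53.7, 60.4 and 62.2%. The Baseline of the members there was lower in every population, as given above, and in points they lost less than the other genes. Between 2500 and 4500 bp they lost 19.4, 24.5, 46.4, 59.8 and 61.8%, against 14.1, 21.3, 35.3, 47.1 and 48.6%. On the upstream side there was no such gap. Between 2000 and 500 bp upstream the members lost 22.2, 24.7, 35.6, 54.3 and 55.2%, and the other genes 21.5, 28.9, 38.6, 53.2 and 55.4%.

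Gene length and family were then set beside it. Ribosomal protein genes are short, with a median of 5548 bp against 27877 bp for all genes. The 2031 other UMR genes under 10000 bp lost 17.8, 25.0, 40.3, 53.0 and 54.0% between 1500 and 2500 bp, near the values of all UMR genes. In the same range 27 translation factor genes lost 22.6, 27.3, 52.2, 62.6 and 64.2%, 31 ribosome biogenesis genes 19.2, 23.7, 42.8, 54.6 and 54.9% and 78 mitochondrial ribosomal protein genes 15.8, 22.996, 36.5, 48.3 and 49.4%. Of these lists the translation factors came nearest to the cytosolic ribosomal protein genes.

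**Figure D2:**
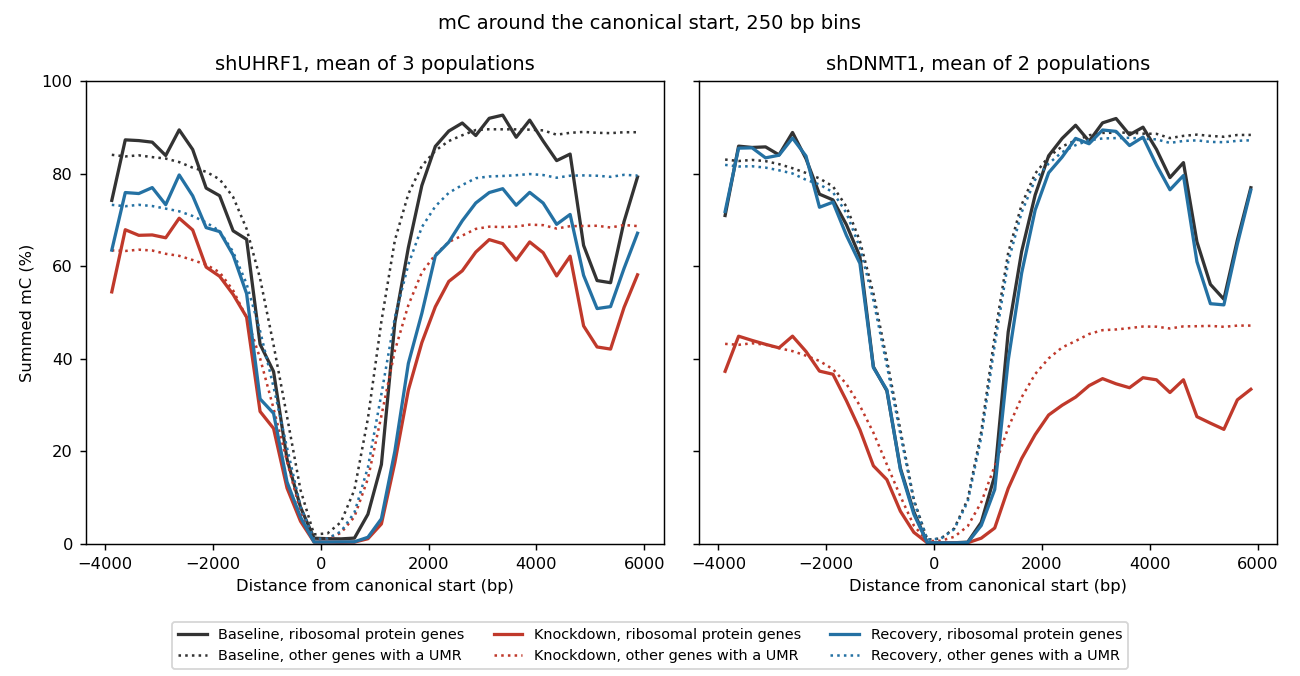
Summed mC in percent in 250 bp bins from 4000 bp upstream to 6000 bp downstream of the canonical start, as the mean of the 3 shUHRF1 clones (left) and the 2 shDNMT1 populations (right) at Baseline (black), Knockdown (red) and Recovery (blue), for the 69 ribosomal protein genes (solid) and the 11225 other genes with a UMR (dotted). Downstream of the start the solid red line runs below the dotted red line in both panels, between 750 and 1500 bp the solid black line also runs below the dotted black one, and in the clones the solid blue line stays near the red one up to about 1500 bp.

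The difference was spread over the members rather than carried by a few. Of the 69 members, 60 had a Baseline mC of at least 20% between 750 and 2500 bp in every population, and 9 could not be assessed (RPL10A, RPL13, RPL13A, RPL23A, RPL27A, RPL3, RPL41, RPS2 and RPS3). Their median loss was 38.6, 40.0, 65.9, 67.1 and 67.8%, against 22.7, 29.5, 48.0, 56.7 and 58.3% over 9954 other UMR genes. The number of members above that median was 52, 51, 56, 54 and 54 of 60, and 40 were above it in every population. The share of the other UMR genes above it in every population was not counted, so the 40 has no background here.

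RPS18 (chr6:33272075-33276511), a protein of the small subunit head, lost the most in the clones among these 60 members. Its mC between 750 and 2500 bp was 34.1, 8.95 and 14.3% in Cl.3, 35.2, 10.3 and 13.1% in Cl.6, 24.1, 1.28 and 4.28% in Cl.9, 30.7, 7.24 and 23.1% in R1 and 28.3, 10.8 and 29.8% in R2. That is a mean loss of 79.8% of Baseline in the clones and 69.2% in the bulk populations, and every Knockdown value lay below every Baseline value. RPL26 (chr17:8377516-8383213, minus strand), a large subunit protein that also binds the p53 mRNA, read 65.3, 15.2 and 20.6% in Cl.3, 70.0, 21.3 and 21.9% in Cl.6, 42.5, 3.40 and 5.70% in Cl.9, 58.1, 7.69 and 47.9% in R1 and 51.8, 10.1 and 47.1% in R2. It lost 79.4% and 83.7%, and in the clones its Recovery value stayed within a few points of Knockdown.

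RPS12 (chr6:132814569-132817564), a small subunit protein whose gene hosts 3 small nucleolar RNAs, read 25.1, 7.36 and 7.25% in Cl.3, 32.6, 7.92 and 9.62% in Cl.6, 24.2, 2.74 and 2.95% in Cl.9, 23.02, 8.24 and 26.4% in R1 and 25.7, 8.87 and 20.3% in R2. The clones had regained almost nothing there by Recovery, and the bulk populations had regained most of it. RPL17 and RPL37 followed with mean losses of 70.3% and 69.2% in the clones. The smallest losses in the clones were 20.0% at RPL30, 27.5% at RPS16 and 28.5% at RPL14. RPL30 read 77.2, 71.9 and 74.1% in Cl.3, 85.3, 71.1 and 80.6% in Cl.6, 75.7, 48.0 and 54.4% in Cl.9, 83.1, 34.7 and 80.2% in R1 and 78.1, 34.6 and 76.3% in R2. At RPS16 the loss in Cl.3 was -5.29%, that is, mC there was higher at Knockdown than at Baseline.

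**Figure D3:**
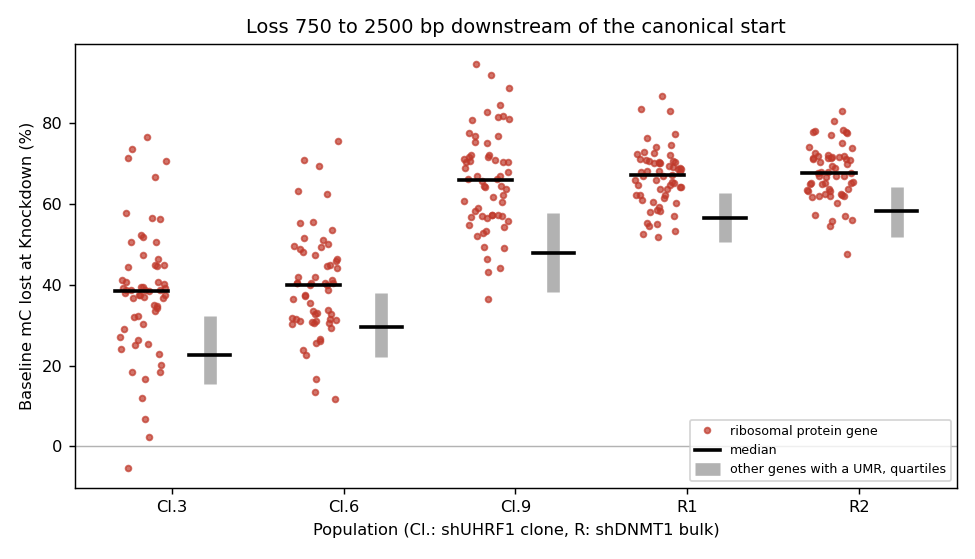
Share of Baseline mC lost at Knockdown (percent) between 750 and 2500 bp downstream of the canonical start, for 60 ribosomal protein genes (red points, black bar the median) beside the quartiles (grey) and median (black bar) of 9954 other genes with a UMR, in each population. In the clones the member medians are 38.6, 40.0 and 65.9% against 22.7, 29.5 and 48.0%.

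Single CpGs with large falls can be shown directly, in the body for RPL26 and RPS19, in the upstream flank for RPL38 and in the start window for RPL3 and RPL36. For members among those with the largest changes, the CpG of that region with at least 5 reads in every library and the largest mean fall in the clones is printed with 14 bases on either side, on the strand of the gene and with the CpG in capitals. These CpGs were picked for their fall and are examples, not tests. They lie in hg38 at chr17:8381274-8381303 (minus strand, 1925 bp into RPL26), chr19:41861659-41861688 (1418 bp into RPS19), chr17:74202287-74202316 (-1281 bp from the start of RPL38), chr22:39320707-39320736 (minus strand, -332 bp from the start of RPL3) and chr19:5675030-5675059 (97 bp into RPL36).
RPL26: atgcagagccagaaCGagagaccagagtta
RPS19: cagagtgtttagaaCGtgtctgttgcacag
RPL38: cactgctagaacccCGacacatttacagtt
RPL3: gacggttaggggagCGtctttggtggccgc
RPL36: tgccaggatgaggaCGggaggggtcttact

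At the RPL26 CpG mC at Baseline, Knockdown and Recovery was 100, 11.8 and 38.1% in Cl.3, 100, 23.8 and 38.5% in Cl.6, 87.5, 0 and 0% in Cl.9, 66.7, 17.2 and 78.6% in R1 and 92.0, 17.4 and 80.0% in R2, from 17 to 37 reads. There the bulk populations came back while Cl.9 did not. The RPS19 CpG, in 10 to 51 reads, read 100, 11.1 and 9.52% in Cl.3, 52.2, 10.0 and 3.03% in Cl.6, 84.3, 0 and 2.17% in Cl.9, 58.8, 20.7 and 57.7% in R1 and 77.4, 3.03 and 47.8% in R2, so that R2 came back only in part. Single CpGs at this depth carry wide counting error, so only such large steps can be read from them.

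The regions called by the authors give the same places as lengths. A UMR, called by MethylSeekR in each library separately, covered the canonical start of all 69 members in every library, against 61.1 to 77.7% of all genes. Its median length at Baseline, Knockdown and Recovery was 2213, 2781 and 2639 bp in Cl.3, 2182, 2793 and 2617 bp in Cl.6 and 2414, 4006 and 3208 bp in Cl.9. It was 2341, 7493 and 2448 bp in R1 and 2360, 7727 and 2405 bp in R2. The UMR was longer at Knockdown than at Baseline in 67, 68, 69, 69 and 69 of the 69 members, as it was in 93.9, 97.5, 99.6, 99.9 and 99.9% of all genes with a UMR at both stages. Over all genes the Knockdown medians were 2110, 2223, 3011.5, 4537 and 4843.5 bp.

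The growth was mostly into the gene. The median downstream edge moved out by 334, 363, 1026, 4381 and 4168 bp at Knockdown, against 176, 224, 554, 1140 and 1246 bp in 11127 other UMR genes. The upstream edge moved by 131, 124, 197, 833 and 826 bp, against 93, 139, 306, 952 and 1080 bp. At Recovery the downstream edge was still 276, 294 and 612 bp beyond Baseline in the clones and 0 bp in both bulk populations, against 121, 144, 328, 0 and 0 bp. A UMR can run past the end of a short gene. At RPS12, a gene of 2996 bp, it measured 3769, 4743 and 4585 bp in Cl.3, 3651, 4909 and 4585 bp in Cl.6, 3651, 9580 and 4743 bp in Cl.9, 3651, 16107 and 3651 bp in R1 and 3651, 16205 and 3769 bp in R2. At RPL26 it measured 2627, 4233 and 4131 bp in Cl.3, 3337, 4181 and 4131 bp in Cl.6, 3621, 5641 and 5509 bp in Cl.9, 3372, 10319 and 3456 bp in R1 and 3337, 12423 and 3605 bp in R2. Both returned to their Baseline length, or nearly so, in the bulk populations.

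**Figure D4:**
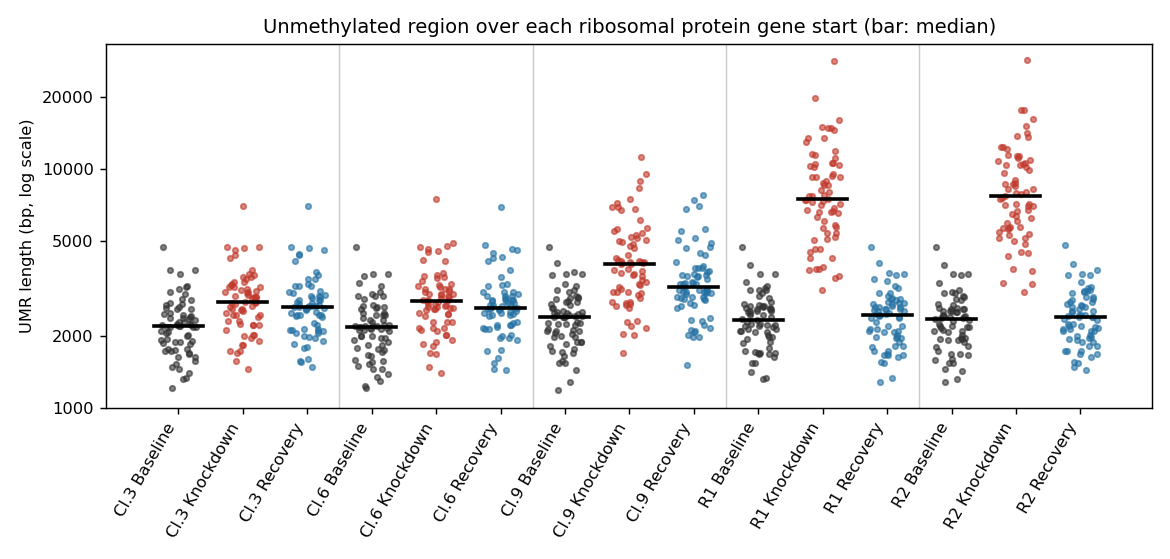
Length in bp (log axis) of the UMR over the canonical start of each ribosomal protein gene (points) in each library, with the median as a bar. The medians rise from 2341 and 2360 bp to 7493 and 7727 bp in R1 and R2 and return, and in the clones they stay above Baseline at Recovery.

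In the upstream flank the members started lower than other genes and lost less in points. Baseline mC of the other genes was 65.6, 67.4 and 61.1% in the clones, with 62.7 and 62.4% in R1 and R2. The summed mC of the members was 56.1, 45.6 and 51.0% in Cl.3, 56.5, 44.1 and 47.9% in Cl.6, 50.7, 33.5 and 38.9% in Cl.9, 51.1, 24.3 and 51.5% in R1 and 52.6, 24.4 and 51.6% in R2. The mean change at Knockdown was -13.4 ± 3.43 points under shUHRF1 and -27.5 ± 1.03 points under shDNMT1, against -18.3 ± 5.63 and -32.1 ± 0.638 points over all genes. edgeR called 65 of 69 members lower at shUHRF1 Knockdown (all genes 97.6%) and 67 of 69 at shDNMT1 Knockdown (98.7%). Near saturation the count says little, and the sizes carry the difference between members.

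The largest upstream falls in the clones were at RPL7, RPL38, RPS16 and RPL37. RPL7, a large subunit protein beside the 5S RNA, read 86.5, 59.5 and 67.3% in Cl.3, 88.9, 59.9 and 67.6% in Cl.6, 90.8, 41.9 and 56.4% in Cl.9, 84.6, 35.5 and 82.0% in R1 and 83.8, 33.0 and 76.9% in R2 (change of -34.97 ± 12.1 points under shUHRF1, edgeR adjusted p = 1.89e-11). RPL38, known for a role in translating Hox mRNAs, read 89.9, 71.1 and 77.5%, 88.8, 57.9 and 66.9%, 81.0, 34.5 and 46.2%, 83.3, 36.4 and 83.9% and 85.1, 33.0 and 83.2% in the same order (32.0 ± 13.9 points, edgeR adjusted p = 3.71e-11). At both genes the groups did not overlap and Cl.9 lost the most. The canonical start of RPL7 lies 2156 bp from its gene start, and in the flank of the canonical start its shDNMT1 change was not called (log2 odds ratio -0.30). RPS16 fell by 29.7 ± 6.87 points from 84.6, 80.7 and 74.2%. The start window of RPS16 also covers the start of another gene, SUPT5H. Whether the RPS16 flank lies within that gene was not tested. RPL37 fell by 28.9 ± 10.1 points from 80.5, 51.4 and 27.7%, a Baseline that differed between the clones by more than the change.

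Under shDNMT1 the largest upstream falls were at RPS15A, RPL3, RPS9 and RPS10. RPS15A, a protein of the small subunit body, read 93.0, 27.4 and 89.7% in R1 and 91.3, 29.6 and 87.6% in R2, a fall of 63.7 ± 2.75 points (edgeR adjusted p = 1.23e-14). In the clones it read 91.2, 80.5 and 93.5% in Cl.3, 93.9, 73.3 and 82.7% in Cl.6 and 93.2, 68.5 and 85.8% in Cl.9. RPL3, RPS9 and RPS10 fell by 59.3 ± 2.70, 58.7 ± 2.89 and 57.3 ± 3.71 points under shDNMT1. The start window of RPS10 also covers the start of RPS10-NUDT3. RPS27, a zinc finger protein of the small subunit, RPL30 and RPL11, which binds MDM2 with the 5S particle, had the highest upstream Baselines, and in the clones they kept most of it. RPS27 read 98.1, 91.2 and 96.5% in Cl.3, 97.6, 87.5 and 92.7% in Cl.6, 97.4, 78.4 and 87.8% in Cl.9, 97.1, 41.6 and 94.7% in R1 and 97.6, 40.7 and 96.5% in R2. RPL30 fell by 10.0 ± 5.18 points in the clones and 42.4 ± 10.4 in the bulk populations, and RPL11 by 21.7 ± 7.30 and 46.8 ± 1.75.

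A few members had an unmethylated or barely changing flank. Upstream Baseline mC was 0.396 to 3.65% at RPL28, 1.71 to 3.67% at RPS12 and 3.12 to 8.52% at RPL26, each with its highest value in Cl.6, which Cl.3 shared at RPL26. RPL28 was called lower under shUHRF1 (edgeR adjusted p = 2.42e-05) on a change of -1.76 points. Not called under shUHRF1 were RPS24 (edgeR adjusted p = 0.0647), RPL41 (0.259), RPL23 (0.0524) and RPS19 (0.435), and not called under shDNMT1 were RPS29 (0.323) and RPL28 (0.0904). Without Cl.3, RPS24 and RPL23 passed under shUHRF1 (log2 odds ratios of -0.75 and -0.59), and RPL28 passed under shDNMT1 without R2 (-2.13) and by limma (-1.15). In the flank of its canonical start RPS29 was called under shDNMT1 (-1.53). The start windows of RPL26 and RPS29 also cover the start of another protein-coding gene. Whether their flanks lie within that neighbour was not tested. RPS24, a gene mutated in some Diamond-Blackfan anaemia families, read 63.0, 63.6 and 57.3% in Cl.3, 60.8, 55.0 and 65.4% in Cl.6 and 67.4, 49.1 and 54.1% in Cl.9, which overlap. In R1 it read 69.3, 24.8 and 63.4% and in R2 68.4, 20.6 and 63.5%, which do not.

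Gene bodies held most of the methylation of these genes and lost it in every population. Summed mC was 63.3, 50.3 and 55.3% in Cl.3, 65.7, 48.1 and 55.0% in Cl.6, 56.0, 32.3 and 41.7% in Cl.9, 59.3, 28.1 and 58.6% in R1 and 59.7, 26.9 and 57.9% in R2. The change at Knockdown was -18.1 ± 5.36 points under shUHRF1 and -32.0 ± 1.17 points under shDNMT1, against -20.4 ± 8.63 and -36.0 ± 0.640 points over all genes. edgeR called 68 of 69 members lower under each shRNA, and 99.7% of all genes in each. The exception in both was RPL41, the shortest ribosomal protein, whose gene of 1378 bp had hardly any body methylation. It read 0, 0.417 and 0.403% in Cl.3, 3.21, 1.08 and 0.664% in Cl.6, 1.07, 0.216 and 0.205% in Cl.9, 0.671, 0 and 0.273% in R1 and 0.234, 0 and 0% in R2 (edgeR adjusted p = 0.109 and 0.0838), and limma called it under both (log2 odds ratios of -0.62 and -1.30).

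RPS13 (chr11:17074388-17077715, minus strand), a small subunit protein near the subunit interface, fell the most in the clones. Its body read 75.3, 41.4 and 54.2% in Cl.3, 72.4, 42.7 and 54.4% in Cl.6, 67.6, 17.3 and 24.8% in Cl.9, 68.6, 23.9 and 60.7% in R1 and 69.4, 18.4 and 62.6% in R2. The fall was 38.0 ± 10.9 points under shUHRF1 (edgeR adjusted p = 1.02e-23) and 47.9 ± 4.51 under shDNMT1, with no overlap of Baseline and Knockdown under either. RPL26 read 74.4, 40.0 and 46.8% in Cl.3, 75.2, 39.8 and 45.7% in Cl.6, 62.3, 20.8 and 26.2% in Cl.9, 69.2, 17.8 and 63.7% in R1 and 63.5, 17.4 and 60.7% in R2. Its fall of 37.1 ± 3.88 points under shUHRF1 (edgeR adjusted p = 2.62e-25) and 48.8 ± 3.72 under shDNMT1 varied little between clones. RPL18 fell by 32.7 ± 9.09 points under shUHRF1.

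RPS19 (chr19:41860255-41872925), the gene mutated most often in Diamond-Blackfan anaemia, and RPL14 had high Baselines and fell most under shDNMT1 beside RPL26 and RPS13. RPS19 read 85.5, 70.1 and 76.4% in Cl.3, 84.9, 66.6 and 76.7% in Cl.6, 82.0, 44.7 and 58.8% in Cl.9, 83.6, 31.8 and 82.9% in R1 and 83.6, 30.0 and 80.7% in R2. It fell by 23.7 ± 11.8 points under shUHRF1 and 52.8 ± 1.27 points under shDNMT1 (edgeR adjusted p = 1.08e-42), and R1 and R2 were back near Baseline at Recovery. RPL14 fell by 47.1 ± 1.18 points under shDNMT1. RPL37A had the highest body Baseline, 84.8 to 90.0%, and fell by 25.0 ± 11.4 and 43.3 ± 1.09 points.

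The smallest body falls besides RPL41 were at genes with low mC in the body as counted from the gene start. RPS27A, which encodes a fusion of ubiquitin and a small subunit protein, fell by 7.43 ± 0.637 points in the clones from 19.6, 21.2 and 15.7%. RPL7 fell by 7.05 ± 1.68 points in the bulk populations from 11.0 and 13.7%. RPL10A fell from 14.3, 17.0 and 6.23% to 4.41, 4.18 and 0.623% in the clones and from 10.8 and 10.5% to 2.69 and 2.67% in the bulk populations. In points these are small, but every RPL10A Knockdown value lay below every Baseline value under the same shRNA.

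**Figure D5:**
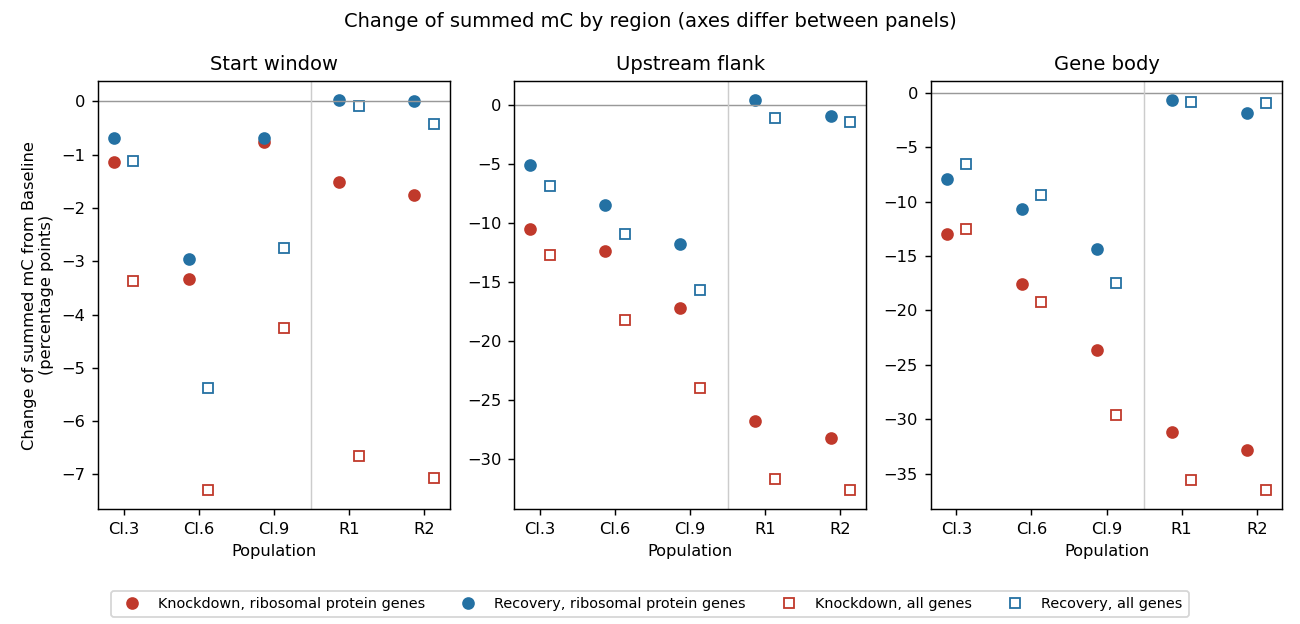
Change of summed mC from Baseline in percentage points in each population, for the ribosomal protein genes (filled) and all genes (open) at Knockdown (red) and Recovery (blue), in the start window, upstream flank and gene body, with a different axis in each panel. In the start window members fell by less than all genes in every population, and R1 and R2 returned close to 0 at Recovery in every panel.

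The difference between the knockdowns was tested as such, as the shUHRF1 change against the shDNMT1 change in the same edgeR fit. In the body it was positive, that is, a smaller fall under shUHRF1, for 46 of 69 members (all genes 83.3%), in the upstream flank for 34 of 69 (35.9%) and in the start window for 1 of 68 (3.37%), RPL22. For the start window edgeR gave 4 of 68 members and 3886 of 17783 genes at an unadjusted p under 0.05, and limma called none. RPL22 had a log2 odds ratio between the knockdowns of 3.13 (edgeR adjusted p = 0.0362). The upstream flanks of RPL3 (2.68, edgeR adjusted p = 0.000278) and RPS27 (2.84, edgeR adjusted p = 0.000504) and the bodies of RPS19 (1.73, edgeR adjusted p = 1.66e-05) and RPL27 (1.59, edgeR adjusted p = 9.76e-05) differed the most. These counts rested on few libraries. Without R1 the body, upstream and start counts were 13 (all genes 32%), 10 (5.52%) and 0, without R2 they were 0 (0.179%), 7 (2.44%) and 0, without Cl.6 the body count was 28 (67.1%) and the start count 2 (1.7%), and without Cl.3 the start count was 0 (0.734%). Without the population as a block the body count was 0 (0.0163%) and the upstream count 0 (0.00554%). The shRNA cannot be told apart here from the use of clones or bulk cells.

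At Recovery the clones were still well below Baseline in flanks and bodies, and the bulk populations were close to it. Under shUHRF1 edgeR called 62 of 69 members lower than Baseline in the body (all genes 95.8%), 58 of 69 upstream (89.9%) and 19 of 68 in the start window (58.3%). The start count was 8 of 69 around the canonical start (54.1%), 30 without Cl.3 (63.9%), 10 without Cl.6 (40.4%) and 8 without the block (21.8%), and the body count without the block was 34 (72.4%). Under shDNMT1 edgeR called 0 members in all 3 regions (all genes 0%), with 1, 6 and 0 members at an unadjusted p under 0.05 in the start window, the upstream flank and the body (2.46, 4.62 and 1.13% of all genes), and limma also called 0. Fitted without the clones, the bulk populations gave 1 member and 2925 of 18430 genes called lower in the body. A count of 0 does not show that values were equal. In the body the members of R1 and R2 were on average 1.28 points below Baseline, written as a change of -1.28 points.

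The share of the body loss that came back in the clones was lower in the members than in all genes, by the least in Cl.9. It was 39.1, 39.6 and 39.4% of the summed loss for Cl.3, Cl.6 and Cl.9, against 47.5, 51.1 and 41.1% over all genes. In R1 and R2 it was 97.8 and 94.4%, against 97.5 and 97.4%. Over the 67 members that had lost at least 5 points in every population the median regain per gene was 38.5, 39.3 and 35.2% in the clones, against 49.4, 53.5 and 46.0% over 17883 genes. The largest remaining deficits in the clones were at RPL26 (-31.1 ± 4.48 points), RPS13 (-27.3 ± 13.5) and RPL18 (-27.1 ± 8.76). The smallest were at RPL41 (-1.002 points), RPL36 (-4.14) and RPL22 (-5.08), and none of these passed the test. At RPL36 and RPL22 the edgeR adjusted p was 0.182 and 0.129, though RPL36 passed without Cl.3 (log2 odds ratio -0.36). RPL41 passed without Cl.3, without exons and by limma (-2.25, -4.32 and -0.84), among other alternatives. With the body counted from the canonical start, RPL22, RPL36 and RPL41 were all called lower at Recovery (log2 odds ratios of -0.86, -1.08 and -1.78). In the upstream flank the regain was 51.9, 31.3 and 31.4% in the clones, against 45.5, 39.8 and 34.5%, with no common direction.

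CpG spacing separated the losses within these genes too. A CpG whose nearest neighbour is at least 20 bp away counts as low-density. In the member bodies low-density CpGs changed by -26.8 ± 9.62 points and the denser CpGs by -11.9 ± 2.86 points under shUHRF1, and by -43.0 ± 0.687 and -24.2 ± 1.38 points under shDNMT1. The denser CpGs also started lower, so the comparison was repeated among body CpGs with at least 85% at Baseline. Of these, 29.4, 40.2 and 74.1% of the low-density CpGs fell by at least 30 points in the clones, against 15.2, 19.6 and 46.3% of the denser ones. In R1 and R2 it was 93.1 and 93.7% against 84.1 and 87.2%. In the upstream flanks of the members low-density CpGs also fell more often, with 29.1, 39.1 and 66.4% against 14.2, 15.7 and 38.7% in the clones and 95.5 and 95.1% against 89.0 and 90.1% in the bulk populations. Flanks of other genes had 27.6, 43.2 and 71.9% against 13.8, 21.3 and 41.7% in the clones. There the members lay above them in Cl.3 and below them in Cl.6 and Cl.9.

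The other genes of the translation machinery, taken from fixed lists, are given by their counts. Of the 7 cytosolic ribosome genes outside the naming rule, 2 were called lower in the start window under shUHRF1 and 1 under shDNMT1, and all 7 in the flank (all genes 97.6 and 98.7%) and the body (99.7% under each) under both. Under shUHRF1 they were FAU, a fusion of a ubiquitin-like protein and a small subunit protein (edgeR adjusted p = 0.0339), and RACK1, a scaffold on the small subunit (edgeR adjusted p = 9.25e-07), and under shDNMT1 it was RACK1 (edgeR adjusted p = 4.21e-05). Without Cl.6 the FAU call was lost (log2 odds ratio -0.92, edgeR adjusted p = 0.256), and around its canonical start RACK1 was not called under shUHRF1 (-1.15, edgeR adjusted p = 0.103). The RACK1 start window read 57.8, 20.9 and 27.7% in Cl.3, 40.1, 18.8 and 24.9% in Cl.6, 68.7, 11.2 and 16.8% in Cl.9, 46.0, 13.1 and 51.7% in R1 and 53.2, 18.6 and 47.0% in R2, so that the Knockdown values did not reach the Baselines under either shRNA. In the start window the calls under shUHRF1 and shDNMT1 were 15 and 12 of 26 translation factors, 17 and 14 of 31 ribosome biogenesis genes, 12 and 8 of 14 RNA polymerase I genes and 39 and 25 of 78 mitochondrial ribosomal protein genes, where 73.4 and 65.4% of all genes were called. Among the members themselves they were 14 and 10 of 29 small subunit genes and 16 and 13 of 39 large subunit genes. Without Cl.6 the shUHRF1 counts were 6, 9, 8 and 19 in the 4 lists and 6 and 7 in the subunits, where 56.4% of all genes were called.

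The paralogues that the rule left out split in their start methylation. RPL3L and RPL10L, whose known expression is in striated muscle and in testis, had methylated starts. RPL10L read 88.1% at Baseline and 80.9% at Knockdown in Cl.3, 86.98 and 71.5% in Cl.6, 80.4 and 61.01% in Cl.9, 84.1 and 39.8% in R1 and 86.1 and 36.0% in R2. RPL3L read 91.8 and 89.9% in Cl.3, 94.9 and 88.8% in Cl.6, 93.2 and 76.3% in Cl.9, 97.4 and 46.1% in R1 and 93.1 and 47.8% in R2. At shUHRF1 Knockdown, where 73.4% of all genes were called lower in the start window, so were 4 of the 7 tested paralogues, RPL10L (edgeR adjusted p = 0.000653), RPL7L1 (0.000282), RPL3L (0.00635) and RPL36AL (0.0384), while RPL22L1 (0.151), RPL26L1 (0.0631) and RPS27L (0.0559) were not. Under shDNMT1, where 65.4% of all genes were called, 4 of the 7 were called too, RPL3L (edgeR adjusted p = 1.3e-08), RPL10L (8.92e-09), RPL26L1 (0.00532) and RPS27L (0.0105), while RPL7L1 (0.106), RPL36AL (0.862) and RPL22L1 (0.822) were not. The RPL36AL call under shUHRF1 was lost without Cl.6 (log2 odds ratio -0.11, edgeR adjusted p = 0.901). RPL39L, at 92.3% in Cl.3 at Baseline, had too few CpGs or reads to be tested in this window. At shUHRF1 Knockdown, around the canonical start, RPL39L (log2 odds ratio -2.84, edgeR adjusted p = 5.75e-06) and RPL26L1 (-2.61, edgeR adjusted p = 3.47e-05) were called lower. At Baseline RPL7L1 held 1.14 to 4.40%, in the range of the members, and the X-linked ribosomal protein genes were outside the tested set.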

How the data were processed

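The 15 bisulfite libraries of HCT116 cells comprised 1 per population and time point. The authors aligned reads to hg38 with Meth10X and deposited, for every CpG, the count of methylated reads and the read count covering it, with no normalization and a lambda spike-in to follow conversion. The authors also deposited lists of unmethylated, low-methylated, partially methylated and highly methylated regions, called in each library separately with MethylSeekR and bedtools 2.25.0, of which only the lengths and positions were used. Each of the 3 count tables held 29456478 positions.

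Counts were summed over the regions of 19111 autosomal protein-coding genes of GENCODE 44 (hg38). A region entered the test with 5 or more CpGs and, in each library, 50 or more reads. It was tested with edgeR 4.0.16 (R 4.3.3) by the quasi-likelihood test on methylated and unmethylated counts, with a term for each library and the population as a block, all 15 libraries in 1 fit per kind of region, two-sided, with Benjamini-Hochberg adjustment over all genes and a threshold of 0.05. limma 3.58.1 on log ratios with 1 read added to each count was an alternative. Python 3.11.15, numpy 2.4.6 and pandas 2.3.3 did the rest. Depth was 317670080 to 593644411 reads at CpGs per library, and the lowest number of reads in a tested member region was 123 in the start window, 102 upstream and 185 in the body.

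The block follows from Baseline, Knockdown and Recovery being plates of the same population. As a check, deviations from the group means correlated by 0.284 to 0.728 between libraries of the same clone, but only by -0.006 to 0.039 within R1 and R2. None of the 12 pairs of libraries of the same group agreed within sampling noise. Nothing in the labels says that R1 and R2 come from separate transductions, so p-values speak for these populations only. With the population as a block they rest on how the changes varied between populations, not on differences in level. For each gene that spread was estimated over all 15 libraries, clones and bulk together, and was moderated toward that of the other genes tested. A very small p-value is therefore not a measure of how much that gene's own change varied between its populations. On simulated counts for the 18385 gene bodies and the shUHRF1 Knockdown comparison, 200 genes were changed. Of these, edgeR recovered 10% of genes changed by a log2 odds ratio of 1 and 89% of those changed by 2, with 6.604% false calls. Far more bodies were called in the data, and the simulated spread was a fixed setting. These shares therefore do not carry over to the tests above.

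Members, lists and the downstream ranges were chosen with results of these data known. Members named are those with the largest and smallest falls for each shRNA, the highest and lowest Baselines, the largest and smallest deficits at Recovery in the clones, and those outside a near-complete or near-empty call. RPS18 and RPL17, the downstream values of the other named members, the start examples RPS15 and RPL15, and the printed CpGs were chosen after their values were seen. Some results that the naming rule covers are not reported here. Sequences were read from the hg38 reference by coordinates. Alternatives covered window sizes, the canonical start, coverage filters, exons, single populations, limma and the fit without the block.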

Additional observations from a re-analysis of the deposited data

Results flagged for a closer look

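The test of the difference between the knockdowns picked out these results, where a positive log2 odds ratio is a smaller fall under shUHRF1 than under shDNMT1. The number of ribosomal protein genes whose knockdowns differed was 1 in the start window (all genes 3.37%), 34 in the upstream flank (35.9%) and 46 in the gene body (83.3%). Without the population as a block all 3 counts were 0, and without R2 they were 0, 7 and 0. In the start window the gene was RPL22, at its outermost 5′ end, with a log2 odds ratio of 3.13 (edgeR adjusted p = 0.0362). In the upstream flank RPS27 stood at 2.84 (edgeR adjusted p = 0.000504) and RPL3 at 2.68 (edgeR adjusted p = 0.000278). In the gene body RPS19 stood at 1.73 (edgeR adjusted p = 1.66e-05) and RPL27 at 1.59 (edgeR adjusted p = 9.76e-05). The RPL27 body read 64.9, 53.5 and 63.0% at Baseline, Knockdown and Recovery in Cl.3, 67.3, 54.1 and 64.7% in Cl.6, 60.6, 33.3 and 44.6% in Cl.9, 66.6, 24.8 and 61.3% in R1 and 63.0, 20.9 and 62.5% in R2. The shRNA, the use of clones or bulk cells and the table of origin cannot be told apart in any of them.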

How the results depend on the processing

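Each call count was recomputed under the alternatives, and the counts that moved by over 1.5 times are these. At shUHRF1 Knockdown the start count of 30 was 12 within 250 bp either side, 15 with no replicate block and 13 (without Cl.6) to 37 (without Cl.3, all genes 76.6%) with a population left out. At shDNMT1 Knockdown the start count of 23 was 4 within 250 bp, 10 around the canonical start, 12 without the block and 7 (without R2) to 25 (without Cl.6, all genes 69.2%) with a population left out. At shUHRF1 Recovery the start count of 19 was 10 within 250 bp (all genes 32.7%), 8 around the canonical start, 8 without the block and 10 to 30 with a population left out. The body count of 62 was 34 without the block. The body count of 0 at shDNMT1 Recovery was 1 in a fit of the libraries of 1 shRNA only, where 2925 of 18430 genes were called lower. For the difference between the knockdowns, the start count of 1 was 0 within 250 bp, with CpGs of at least 5 reads, with at least 200 reads, around the canonical start, by limma and without the block, and 0 to 2 with a population left out. The upstream count of 34 was 0 without the block and 7 to 47 (without Cl.9, all genes 61.6%) with a population left out, and the body count of 46 was 0 without the block and 0 to 59 (without Cl.9, all genes 95.3%).

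For summed mC only shDNMT1 changes moved beyond their SD, which rests on 2 populations. At Knockdown the SD of the clones was wider, so their changes could move further without being counted. The shUHRF1 start change of -1.74 points, for example, was -0.947 without Cl.6 and was not counted. Under shDNMT1 the Knockdown change in the start window was -0.80 points around the canonical start, -3.22 as a mean over members and -0.386 within 250 bp. The Recovery change was -0.0704 with CpGs of at least 5 reads, 0.0402 without high-coverage CpGs, -0.0578 around the canonical start and -0.101 as a mean over members. In the upstream flank Knockdown gave -28.9 without high-coverage CpGs, -23.1 from the canonical start and -34.3 as a mean over members, and Recovery -1.87 as a mean over members. In the body Knockdown gave -37.5 from the canonical start, -42.2 from 2000 bp and -33.6 without exons. The cause was not tested. Of 1734 alternatives to the results of named members, 1659 were counted as unchanged. A change of sign in a result not called in the main fit was also counted as unchanged. Among results called in the main fit 2 reversed, RPL3 (0.22) and RPL36 (0.014) at shDNMT1 Knockdown around the canonical start. Both were near 0 there at Baseline. The block changed 11 calls among named members. At this depth the start interval reached 0.457 points to either side at the median, where the member medians per library were 0.311 to 3.27%.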
